A study of Mus musculus with 11 samples.

Results

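The 10 genes described here were listed together as identity genes of the ovarian surface epithelium (OSE) and of the mesothelium. They were followed through all libraries of the series: Gata4, Gata6, Wt1, Upk3b, Aldh1a1, Aldh1a2, Lhx9, Nr2f2, Bnc1 and Cdh16. They were taken as a list of names, chosen with earlier results of these data known. They are 10 of the 18305 genes in the table, each measured in 27 libraries. How well they were detected in OSE tissue differed from gene to gene. In OSE tissue, Gata4, Gata6, Wt1, Aldh1a1, Aldh1a2 and Nr2f2 stood at 79.55 CPM or more in each library, Lhx9 and Bnc1 were low, and Upk3b and Cdh16 had at most 8 and 2 reads. They are therefore described below gene by gene.

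The series compared the mouse oviduct with the OSE, the epithelial sheets discussed as possible origins of high-grade serous ovarian cancer, as tissue and as organoids. From C57BL/6 female mice of 8 to 12 weeks there were 3 libraries each of oviduct tissue, oviductal organoids and OSE tissue, and 2 of OSE organoids. The labels state that an OSE organoid lane was removed before analysis, and the lines called OSE organoids 1 and 2 here carry the numbers of their columns. The study reports that a contaminated OSE organoid line was left out. The remaining libraries were all of oviductal origin. Of these, 3 came from unedited organoids of Cas9-GFP mice, which carry Cas9 and EGFP at the ROSA26 locus. Another 3 were TBP clones, clonal organoids of such mice edited with Cas9 guides and selected with Nutlin-3a. A further 6 were tumors grown from TBP clones in immunodeficient mice, and 4 were organoids grown back from tumors in medium with Nutlin-3a. Of those, T1-mes and T3-mes held epithelial and fibroblast-like cells and T2-epi and T4-epi were epithelial. All 4 are described as descending from an original TBP clone, with T1-mes and T2-epi from tumors on opposite flanks of a mouse, so they are not independent clones. Each TBP clone comes from 1 edited cell, and tumors contain host cells. The labels do not tie libraries to separate animals, but the study's methods call the tissue samples, the organoid lines and the tumors independent. For the clones, tumors and tumor-derived lines, which can share a clone or a mouse, p-values measure the spread between these libraries.

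The OSE is a modified mesothelium that covers the ovary, and it shares the coelomic origin of the gonad. Gata4, Gata6, Wt1 and Lhx9 encode transcription factors that act in the coelomic epithelium and in the early gonad, and Gata4 and Gata6 stay active in granulosa cells of the adult ovary. Nr2f2 (COUP-TFII) is a nuclear receptor of stroma and mesothelium, and Bnc1 encodes the zinc-finger protein basonuclin 1. Aldh1a1 and Aldh1a2 oxidize retinaldehyde to retinoic acid. Upk3b, a uroplakin, and Cdh16, a cadherin known from kidney epithelium, are membrane proteins.

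In GRCm38 with the GENCODE vM21 annotation, all 10 are protein-coding genes. Gata4 lies at chr14:63198922-63271692 on the minus strand and Wt1 at chr2:105126529-105173616 on the plus strand. Aldh1a1 lies at chr19:20492715-20643465 and Aldh1a2 at chr9:71215789-71296243, both on the plus strand. Lhx9 lies at chr1:138825186-138848577, Nr2f2 at chr7:70351944-70366735 and Bnc1 at chr7:81966672-81992292, all on the minus strand. Upk3b lies at chr5:136038496-136046487 on the plus strand and Cdh16 at chr8:104601911-104624396 on the minus strand. Only reads on the sense strand were counted, so the antisense gene Wt1os beside Wt1 was kept apart. Aldh1a7 is a close copy of Aldh1a1, but none of the 451 windows of 50 bases in the last 500 bases of the transcript Aldh1a1-201 occurs in transcript Aldh1a7-201.

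Levels are given as CPM, the usual depth-scaled read count of a gene in a library, after TMM scaling over the 27 libraries. The method counts 1 end of each transcript, so levels of 1 gene were compared between libraries and not levels of different genes. Library totals ranged from 600579 to 4531767 reads, apart from TBP clone 1 with 82239 reads. At these depths a count of 0 allows up to 3 reads, which is 33.5 CPM in TBP clone 1 and 0.685 to 5.18 CPM in the other libraries. The intervals and floors cover counting error only. A fold given as at least sets an observed level against such a floor and leaves out the error of that level.

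The tissue labels were checked against markers. OSE tissue also carried markers of other ovarian cells. Its summed granulosa cell markers were at 4076 to 5008 CPM against 34.1 to 111 CPM in oviduct tissue, steroidogenic markers at 6205 to 7611 against 41.4 to 219.7 CPM, and oocyte markers at 629 to 782 against 10.9 to 13.4 CPM. Its summed epithelial markers (Krt8, Krt18, Cdh1 and Epcam) were at 341 to 399 CPM, below the 1454 to 1813 CPM of oviduct tissue. Organoids of both origins carried almost none of the ovarian markers: in OSE organoids the granulosa sum was 6.11 and 14.7 CPM and the steroidogenic sum 3.82 and 13.2 CPM, with Fshr, Cyp19a1, Cyp17a1 and Lhcgr at 0 reads in both lines. The OSE lines differed from each other in oviduct epithelium markers, whose sum was 63.3 CPM in line 1 but 3428 CPM in line 2, against 14890 to 23190 CPM in oviductal organoids. This sum was carried by Ovgp1, the oviduct-specific glycoprotein, at 19.1 CPM in line 1 and 3243 CPM in line 2, and by Pax8, a factor of oviduct secretory cells, at 43.5 and 179.8 CPM. The study itself reports Pax8 RNA and PAX8 protein in OSE organoids. The ciliogenesis factor gene Foxj1 was at 0.763 and 5.57 CPM, and Pax2 and Dnali1 had 0 reads in both lines.

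Across the 27 libraries, Nr2f2 was the gene of the set with more than 3 reads in all of them. Wt1 exceeded 3 reads in 25 libraries, Gata6 in 24, Aldh1a1 in 20, Gata4 in 19 and Aldh1a2 in 16. Cdh16 did so in 12, Bnc1 in 8, and Lhx9 and Upk3b in 4 each. Upk3b totaled 26 reads over the whole series, Bnc1 89 and Lhx9 93, so these genes could be followed only where they were highest.

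**Figure D1:**
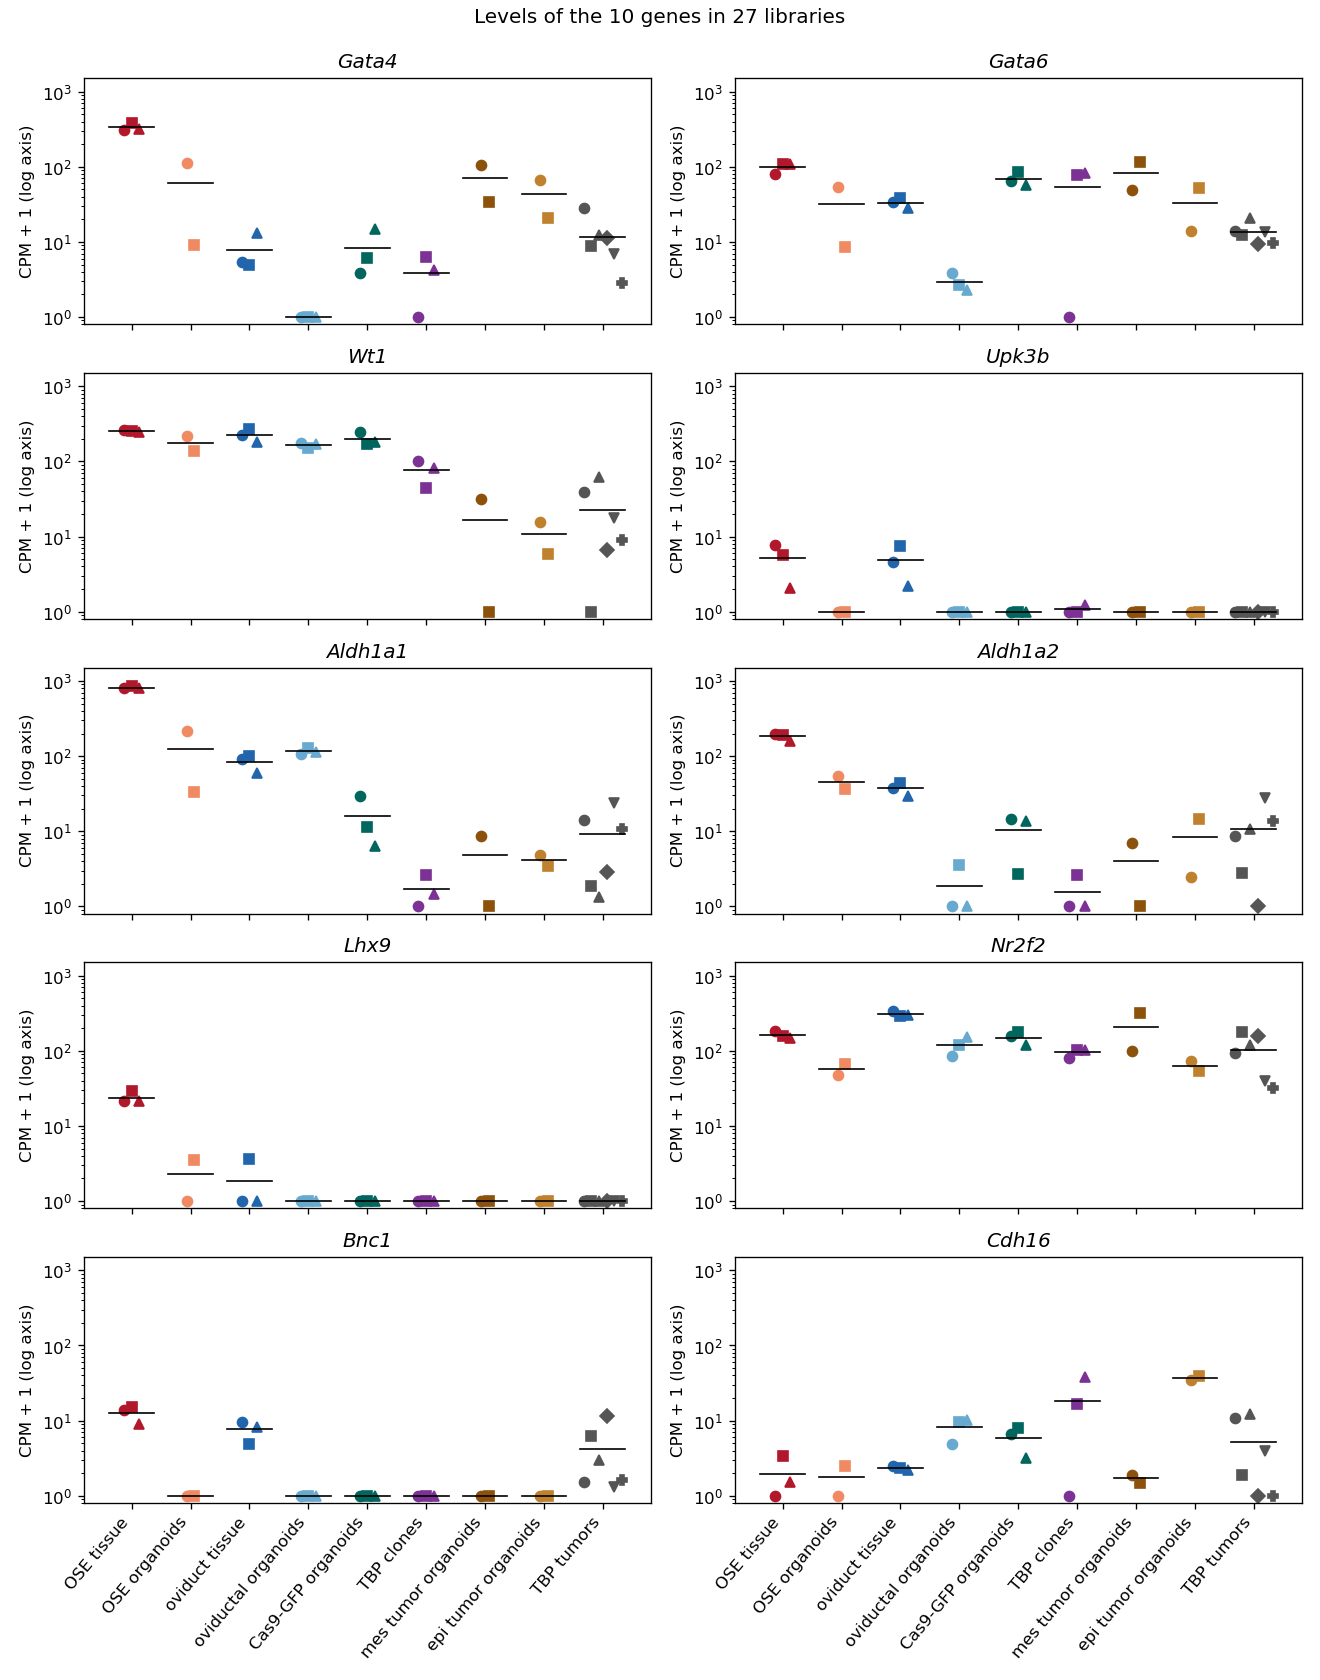
Level of each gene in each of the 27 libraries, as CPM + 1 on a log axis, by group. Each point is 1 library (circle, square, triangle and so on by library number within a group; in the OSE organoids the circle is line 1 and the square line 2) and each bar is the group mean. Lhx9 is high in OSE tissue alone, Nr2f2 is present throughout, and the OSE organoid lines lie far apart for Gata4, Gata6 and Aldh1a1.

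The first comparison asked how OSE tissue differed from oviduct tissue. Gata4 was higher in OSE tissue. Its level was 308, 387 and 320 CPM in the 3 OSE tissue libraries and 4.35, 3.95 and 12.2 CPM in the oviduct libraries. All OSE libraries were far above all oviduct libraries, a log2 difference of 5.66 ± 0.29 (SE, n = 3 against 3, edgeR quasi-likelihood adjusted p = 9.97e-10). Gata6 was at 79.55, 108 and 109 CPM in OSE tissue and at 33.4, 36.8 and 26.9 CPM in oviduct tissue. Gata6 rose too, by a smaller log2 difference of 1.59 ± 0.21 (edgeR adjusted p = 1.35e-05), from a level that was already well above the floor in the oviduct. Lhx9 had 24, 24 and 38 reads in OSE tissue and 0, 2 and 0 reads in oviduct tissue. This LIM homeobox gene was at least 6.99-fold higher in OSE tissue (22.8 ± 4.4 CPM, SD; edgeR adjusted p = 1.68e-05), and it had at most 5 reads in any library outside OSE tissue.

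The other factors behaved differently. Wt1 was at 257, 256 and 248 CPM in OSE tissue and at 226, 271 and 181 CPM in oviduct tissue. These groups overlapped, with a log2 difference of 0.14 ± 0.17 (edgeR adjusted p = 0.5). Nr2f2 was at 182, 157 and 147 CPM in OSE tissue and at 337, 285.5 and 302 CPM in oviduct tissue. Nr2f2 was thus lower in OSE tissue, by a log2 difference of -0.95 ± 0.16 (edgeR adjusted p = 0.000114). Bnc1 had 12 to 15 reads in OSE tissue and 3 to 12 reads in oviduct tissue and was too low to be tested.

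Both retinaldehyde dehydrogenases were higher in OSE tissue. Aldh1a1 was at 795, 860.4 and 796 CPM in OSE tissue and at 89.2, 100 and 58.65 CPM in oviduct tissue. All OSE libraries exceeded all oviduct libraries, with a log2 difference of 3.28 ± 0.20 (edgeR adjusted p = 5.40e-09). Aldh1a2 was at 197, 191 and 159 CPM against 37, 43.4 and 28.1 CPM. That is a log2 difference of 2.31 ± 0.20 (edgeR adjusted p = 1.84e-07). Of the membrane proteins, Upk3b had 2 to 8 reads in OSE and 1 to 5 reads in oviduct tissue, and Cdh16 had 0 to 2 and 1 to 2 reads; neither was tested.

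Of the 7 genes that passed the filter on low counts, 5 were called higher and 1 lower in OSE tissue, where 24.3% of the 8787 genes tested were called higher and 26.9% lower. The median log2 difference was 2.31 over these 7 genes and -0.00 over all genes tested. Gata4 and Lhx9 passed that filter only through OSE tissue, so they could only be called higher. The set was also chosen with earlier results of these data known, so these counts describe it and do not test it. The granulosa, steroidogenic and oocyte markers moved in the same direction: 8 of 8, 5 of 5 and 7 of 7 tested were called higher in OSE tissue, with the sums given above. Their part in the levels of Gata4, Gata6, Lhx9, Aldh1a1 and Aldh1a2 was not tested. In bulk tissue, more cells of a type cannot be told apart from more RNA per cell. Oviduct markers (5 of 5), epithelial markers (4 of 4), smooth muscle markers (6 of 6), fibroblast markers (5 of 7), endothelial markers (2 of 4) and myeloid markers (2 of 3) were called lower. The call for Nr2f2 ended when all 27 libraries were fitted together (log2 difference -0.96, edgeR adjusted p = 0.153).

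**Figure D2:**
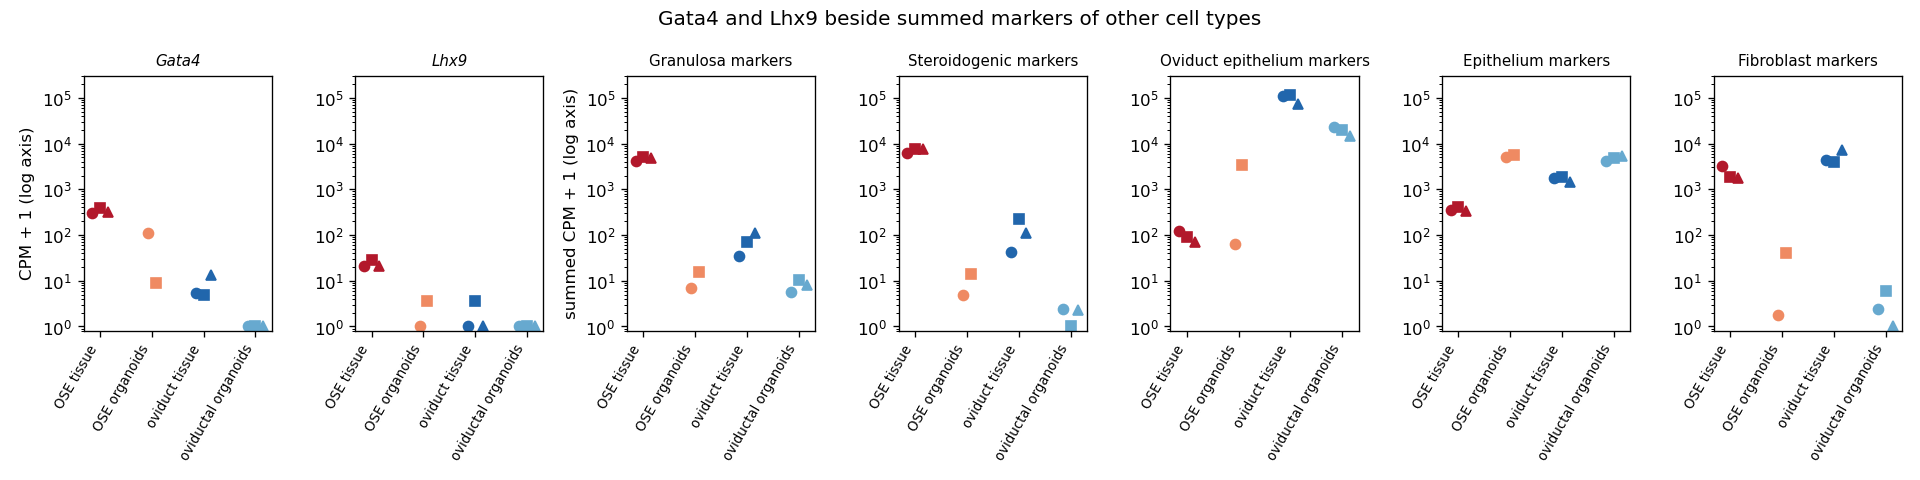
Gata4 and Lhx9 (CPM + 1, log axis) beside the summed CPM + 1 of markers of 5 cell types, in OSE tissue, OSE organoids, oviduct tissue and oviductal organoids; each point is 1 library. Granulosa and steroidogenic sums are at 4076 CPM or more in OSE tissue and at 14.7 CPM or less in both OSE organoid lines, whereas Gata4 is at 111 CPM in line 1 and 8.1 CPM in line 2.

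Genes of 4 further lists were counted in the same fit. Of 12 other mesothelial and OSE genes tested, 5 were called higher and 4 lower in OSE tissue (median log2 difference -0.11). The 3 with the highest mean level, Krt8 (log2 difference -1.95 ± 0.17), Pdpn, which encodes podoplanin (-0.99 ± 0.16), and Krt18 (-2.08 ± 0.18), were lower. Chosen after their values were seen, the uroplakin gene Upk1b (93.62 ± 13.54 against 17.25 ± 5.7 CPM, SD) and Lgr5, a receptor for R-spondins (31.9 ± 0.65 against 0.48 ± 0.84 CPM), were higher in OSE tissue (edgeR adjusted p = 1.05e-06 and 8.99e-07). Of 11 retinoic acid pathway genes tested, 4 were called higher and 3 lower. Adh1, an alcohol dehydrogenase that also oxidizes retinol, was lower (log2 difference -1.65 ± 0.25), and the receptors Rarg and Rara had log2 differences of 0.29 ± 0.22 and 0.17 ± 0.17 that did not pass the test. The retinoic acid carrier Crabp2, also chosen after its values were seen, was at 117 ± 6.1 CPM in OSE tissue and 5.92 ± 5.5 CPM in oviduct tissue (edgeR adjusted p = 6.04e-08). Of 6 gonadal lineage regulators, 5 were called higher and Emx2 lower (log2 difference -1.30 ± 0.22), with Nr5a1, the steroidogenic factor, at 84.5 ± 18.57 against 0.68 ± 0.66 CPM. Of 7 paralogs and partners of the genes, 2 were higher and 3 lower; Gata2, another GATA factor, was lower (4.63 ± 3.8 against 101 ± 14 CPM).

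The same question was then put to the organoids, with each OSE line on its own. Gata4 had 146 reads (111 CPM) in OSE organoids 1 and 16 reads (8.1 CPM) in OSE organoids 2, and 0 reads in all 3 oviductal organoid libraries. Both OSE lines were above the oviductal organoids, with line 1 far above line 2. Against the floor of the oviductal organoids, line 1 was at least 56.3-fold and line 2 at least 4.1-fold higher, and their mean was at least 30.2-fold higher (edgeR adjusted p = 0.232). Gata6 was at 53.4 CPM in line 1 and 7.6 CPM in line 2, against 2.86, 1.69 and 1.31 CPM. The order of the libraries was the same as for Gata4, with a log2 difference of 3.81 ± 0.89 (n = 2 against 3, edgeR adjusted p = 0.2). Aldh1a2 had 70 reads in each OSE line (53.4 and 35.5 CPM) and 0, 3 and 0 reads in the oviductal organoids. Aldh1a2 was the gene in which the OSE lines differed least from each other among those higher in OSE organoids, with line 1 at least 27-fold, line 2 at least 17.9-fold and the mean at least 22.5-fold higher (edgeR adjusted p = 0.11). The unedited oviductal organoids of Cas9-GFP mice were not in this comparison. Their Gata6 was at 56.7 to 84.6 CPM, above both OSE lines. Their Gata4 was at 2.87 to 13.9 CPM, on either side of line 2, and their Aldh1a2 at 1.73 to 13.4 CPM, below both lines.

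Wt1 and Aldh1a1 did not separate the organoids by origin. Wt1 was at 217.5 and 136 CPM in OSE organoids 1 and 2 and at 173, 149 and 171 CPM in oviductal organoids, a log2 difference of 0.08 ± 0.28 (edgeR adjusted p = 0.944). Aldh1a1 was at 212 CPM in line 1 and 31.9 CPM in line 2, so that the lines lay on either side of the oviductal organoids at 107, 129 and 112 CPM. The log2 difference of 0.03 ± 0.67 (edgeR adjusted p = 0.99) was the mean of opposite deviations. Nr2f2 was at 47.3 and 65.35 CPM in the OSE lines and at 85.35, 118.5 and 151 CPM in oviductal organoids (log2 difference -1.09 ± 0.35, edgeR adjusted p = 0.324). Cdh16 had 0 and 3 reads in the OSE lines and 8, 10 and 14 reads in the oviductal organoids, which is at least 3.76-fold lower (edgeR adjusted p = 0.383). Lhx9 had 0 and 5 reads in the OSE lines and 0 reads in the oviductal organoids, and Upk3b and Bnc1 had no read in any of these 5 libraries.

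No gene of the set passed edgeR's test at an adjusted p of 0.05: 0 of 7 higher and 0 of 7 lower, where 0% of the 9257 genes tested were called higher and 0.0864% lower. At an unadjusted p under 0.05, 3 of the 7 were higher and 2 lower, and over all genes 462 were higher and 598 lower. In the set, Gata4, Gata6 and Aldh1a2 passed the filter only through the OSE lines and Cdh16 only through the oviductal organoids, so their direction was fixed. DESeq2 called 2 higher, Aldh1a2 (adjusted p = 3.76e-05) and Gata6 (log2 difference 3.91, adjusted p = 0.0166), where it called 0.829% of genes higher and 1.65% lower. Leaving out OSE organoids 2 gave 3 genes higher and 1 lower, with Gata4, Gata6 and Aldh1a2 at edgeR adjusted p = 4.24e-05, 0.000279 and 0.000965 and Nr2f2 lower at 0.048. In that fit 5.98% of genes were called higher and 8.73% lower. Leaving out OSE organoids 1 gave Aldh1a2 higher (edgeR adjusted p = 0.00995) and Aldh1a1 lower (log2 difference -1.86, edgeR adjusted p = 0.0177), where 0.996% of genes were called higher and 1.5% lower; in either case the lone OSE line was assumed to vary like the oviductal organoids. Ovgp1 and Pax8 moved with the split between the lines, as given above, and their part in it was not tested.

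None of the genes of the other lists passed the test between the organoids. Of the mesothelial and OSE genes, Krt7 was at 3309 ± 403 CPM in OSE organoids (SD, n = 2) and 1696 ± 302 CPM in oviductal organoids (edgeR adjusted p = 0.304). Among 13 retinoic acid pathway genes, Adh1 was at 78.05 ± 86.6 against 232.5 ± 92.2 CPM and Rarg at 177 ± 33.4 against 101.5 ± 40.1 CPM (edgeR adjusted p = 0.524 and 0.501). Chosen after their values were seen, the retinol dehydrogenase gene Rdh10 was at 28.1 ± 22.5 against 181 ± 53 CPM and the retinol uptake receptor gene Stra6 at 85 ± 62.2 against 5.02 ± 2.32 CPM (edgeR adjusted p = 0.1877 and 0.1055).

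**Figure D3:**
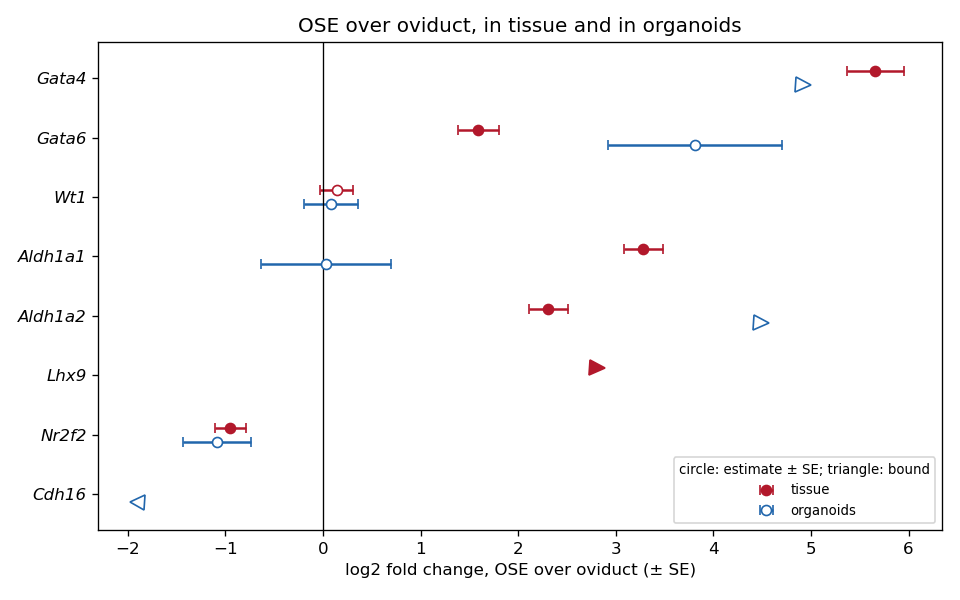
Log2 fold change of OSE over oviduct in tissue (red) and in organoids (blue), for the genes with a test. Circles are estimates with their standard error, triangles are bounds against a group at or under 3 reads per library, and filled symbols passed the test. Wt1 lies near 0 in both, Nr2f2 is below 0 in both, and Aldh1a1 is at 3.28 in tissue and at 0.03 in organoids.

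The next comparison was between organoids and the tissue of the same origin. RNA was extracted with Trizol from tissue and with a column kit from organoids, so the extraction and the culture cannot be told apart. In OSE, 5 of the 8 genes tested were lower in organoids and 0 were higher, where 18.6% of 10232 genes were called lower and 14.5% higher. The median log2 difference was -2.28 over these genes and -0.06 over all. Lhx9 and Bnc1 passed the filter on low counts only through the tissue, so they could only come out lower, and they enter the count and the median. Lhx9 fell from 20.3, 27.9 and 20.2 CPM in tissue to 0 and 2.53 CPM in organoids (log2 difference -3.85 ± 0.77, edgeR adjusted p = 0.00958). Bnc1 had 15, 12 and 15 reads in tissue and 0 reads in both lines, at least 6.06-fold lower (edgeR adjusted p = 0.00518). Aldh1a2 fell by 2.03 ± 0.28 (edgeR adjusted p = 0.00272) and Nr2f2 by 1.49 ± 0.27 (edgeR adjusted p = 0.00671) on the log2 scale. Aldh1a1 fell by 2.75 ± 0.73 (edgeR adjusted p = 0.0271), a call that ended when any of the 3 tissue libraries was left out (edgeR adjusted p = 0.089 to 0.0958).

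Gata4, Gata6 and Wt1 did not pass this test. Both OSE lines were below all tissue libraries for Gata4 (log2 difference -2.52 ± 0.90, edgeR adjusted p = 0.0717) and Gata6 (-1.73 ± 0.69, adjusted p = 0.0986). Here DESeq2 called Gata4 lower (adjusted p = 0.0115), where it called 15.3% of genes lower and 10.6% higher. Wt1 had a log2 difference of -0.51 ± 0.26 (edgeR adjusted p = 0.181). The granulosa markers (8 of 8), steroidogenic markers (5 of 5), oocyte markers (7 of 7) and fibroblast markers (8 of 8) were called lower in organoids together with these genes, and the 4 epithelial markers were called higher. Their part in the differences of the genes was not tested. Among the other mesothelial and OSE genes, the keratins Krt7, Krt8 and Krt18 rose (log2 differences 4.95 ± 0.39, 3.32 ± 0.27 and 4.74 ± 0.28), and 5 genes rose and 6 fell in all.

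In the oviduct, 3 of 5 genes tested were lower in organoids and 0 were higher, where 24.2% of 9477 genes were called lower and 18.7% higher. Gata6 and Aldh1a2 passed the filter only through the tissue, so they could only come out lower. Gata6 fell from 33.4, 36.8 and 26.9 CPM in tissue to 2.86, 1.69 and 1.31 CPM in organoids (log2 difference -3.94 ± 0.41, edgeR adjusted p = 1.50e-05). Aldh1a2 fell to 0, 3 and 0 reads, at least 18.3-fold lower than in tissue (edgeR adjusted p = 4.15e-05). Nr2f2 fell by 1.40 ± 0.22 on the log2 scale (edgeR adjusted p = 0.0002585). Wt1 (-0.47 ± 0.18) and Aldh1a1 (0.47 ± 0.22) did not pass (edgeR adjusted p = 0.0553 and 0.102). Gata4, Upk3b and Bnc1 had 1 to 12 reads in oviduct tissue and 0 reads in the organoids. All 7 fibroblast, 6 smooth muscle, 5 endothelial and 3 myeloid markers tested were called lower in the organoids, and their part in these differences was not tested. The organoids here are those of C57BL/6 mice. In unedited Cas9-GFP oviductal organoids, Gata6 was at 56.7 to 84.6 CPM, above oviduct tissue. Aldh1a2 (1.73 to 13.4 CPM) and Nr2f2 (118 to 174 CPM) were below oviduct tissue there too.

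Whether the change from tissue to organoid differed between the origins was tested as an interaction over the same 11 libraries. Of the genes of the set, 2 were called, where 6.68% of 11458 genes were called higher and 5% lower. They were both dehydrogenases, with opposite signs. Aldh1a1 fell in OSE organoids whereas in oviductal organoids its log2 difference was 0.47, an interaction of -3.34 ± 0.71 (edgeR adjusted p = 0.0106). Aldh1a2 fell in both, with the larger fall in oviductal organoids, an interaction of 3.52 ± 0.79 (edgeR adjusted p = 0.013). This value rests on 0, 3 and 0 reads in the oviductal organoids, so it depends on the prior count and is no bound, and it was 2.76 to 6.55 when each library was left out. Both calls ended when all 27 libraries were fitted together (edgeR adjusted p = 0.126 and 0.203). The interaction of Gata6 was 2.09 ± 0.86 (edgeR adjusted p = 0.138), and that of Nr2f2 was -0.20 ± 0.36 (edgeR adjusted p = 0.798).

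**Figure D4:**
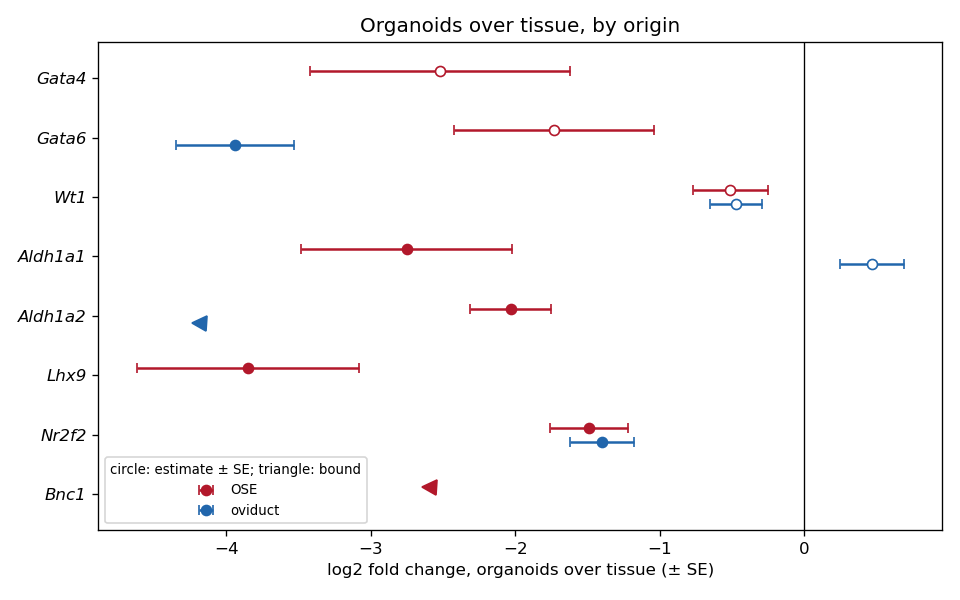
Log2 fold change of organoids over tissue of the same origin, for OSE (red) and oviduct (blue). Circles are estimates with their standard error, triangles are bounds against a group at or under 3 reads per library, and filled symbols passed the test. Nr2f2 falls by nearly the same amount in both origins, and Aldh1a1 is at -2.75 in OSE and 0.47 in the oviduct.

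The sequences upstream of their transcription starts are shown because these genes carry the interaction, from RefSeq on GRCm38.p6. For Aldh1a1, the downstream of the RefSeq starts is shown; its last bases lie in an annotated exon, and the window of the upstream start held none of the motifs. The 250 bases before it lie at chr19:20601718-20601967, and those before the start of Aldh1a2 at chr9:71215539-71215788, both on the plus strand. Capitals mark matches to the GATA letters AGATAA or TGATAA and the letters AGATAG or TGATAG, on either strand; the nuclear receptor half-site AGGTCA and the LIM homeodomain core TAATTA were searched too. Neither of these occurs in the windows shown.
Aldh1a1: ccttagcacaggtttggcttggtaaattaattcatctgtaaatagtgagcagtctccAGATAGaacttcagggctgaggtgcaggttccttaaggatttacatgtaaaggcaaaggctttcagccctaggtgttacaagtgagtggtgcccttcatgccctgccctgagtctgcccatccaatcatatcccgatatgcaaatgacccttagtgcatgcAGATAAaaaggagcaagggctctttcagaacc
Aldh1a2: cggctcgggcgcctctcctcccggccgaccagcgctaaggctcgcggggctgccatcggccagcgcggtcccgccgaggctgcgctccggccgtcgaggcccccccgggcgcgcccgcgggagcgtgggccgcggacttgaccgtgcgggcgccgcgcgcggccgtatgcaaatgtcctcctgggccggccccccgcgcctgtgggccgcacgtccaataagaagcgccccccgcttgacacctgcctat
The window of Aldh1a1 held 2 GATA matches, starting 193 and 32 bases before the start, at 46.4% GC. That of Aldh1a2 held none of the 3 motifs, at 77.6% GC. Of 32851 promoter windows of the same length, 26.5% held a GATA match, 14% the half-site and 4.84% the LIM homeodomain core. RefSeq windows were at hand for 6 of the 10 genes; those of Lhx9, Nr2f2 and Upk3b held 1 GATA match each and that of Bnc1 held none.

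Unedited oviductal organoids were available from C57BL/6 and from Cas9-GFP mice. This comparison was added after the values were seen, and the strain, the transgene and the culture of these lines cannot be told apart. Gata6 was at 64, 84.6 and 56.7 CPM in Cas9-GFP organoids and at 2.86, 1.69 and 1.31 CPM in C57BL/6 oviductal organoids. All Cas9-GFP libraries were above all C57BL/6 libraries by a log2 difference of 4.99 ± 0.38 (n = 3 against 3, edgeR adjusted p = 5.83e-06). Aldh1a1 went the other way, with 28.7, 10.4 and 5.35 CPM against 107, 129 and 112 CPM (log2 difference -2.88 ± 0.39, edgeR adjusted p = 0.000333). Gata4 had 3, 3 and 13 reads against 0 reads in each C57BL/6 library, at least 3.7-fold higher, and Aldh1a2 had 14, 1 and 12 reads against 0, 3 and 0; its mean was at least 4.71-fold higher, with groups that overlapped. Wt1 (log2 difference 0.27 ± 0.19) and Nr2f2 (0.34 ± 0.24) did not pass (edgeR adjusted p = 0.313 and 0.331).

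In all, 1 of 4 genes tested was higher and 1 lower, where 13% of 8323 genes were called higher and 13.3% lower. Gata6 passed the filter only through Cas9-GFP organoids and Aldh1a1 only through C57BL/6 oviductal organoids, so each could be called in that direction only. The summed oviduct epithelium markers were at 238 to 285.5 CPM in Cas9-GFP organoids against 14890 to 23190 CPM in C57BL/6 oviductal organoids. Ovgp1 was at 79.9 ± 14.4 against 19160 ± 4201 CPM, while Pax8 was at 159 ± 20.59 and 175 ± 10.74 CPM. Their part in the differences of Gata6 and Aldh1a1 was not tested.

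The TBP clones were set against the Cas9-GFP organoids. None of the 3 genes tested was called (edgeR), where 0.389% of 7708 genes were called higher and 0.428% lower. At an unadjusted p under 0.05, 1 was lower, and over all genes 392 were higher and 375 lower. DESeq2 called the same gene lower, where it called 0.49% of genes higher and 0.637% lower. That gene was Wt1, at 101, 43.9 and 81.2 CPM in the clones and 245.5, 167.5 and 179 CPM in Cas9-GFP organoids. All clones were below all Cas9-GFP libraries (log2 difference -1.50 ± 0.38; adjusted p = 0.112 by edgeR and 0.0496 by DESeq2). TBP clone 1, the shallow library, rests on 9 reads of Wt1. Gata6 had 0 reads in TBP clone 1, which allows up to 33.5 CPM, and it was at 75.5 and 81 CPM in clones 2 and 3 (log2 difference -0.06 ± 0.47, edgeR adjusted p = 0.987). Aldh1a1 had 0, 3 and 2 reads in the clones, at least 1.24-fold lower than in Cas9-GFP organoids. Cdh16 had 0, 29 and 160 reads in the clones against 6, 4 and 2 reads.

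In the organoids grown back from tumors, Gata4 had 230 reads in T1-mes, 139 in T2-epi, 69 in T3-mes and 41 in T4-epi, which is 105, 66, 33.5 and 19.9 CPM. The TBP clones had 0, 10 and 14 reads (0, 5.36 and 3.19 CPM), below all 4 tumor-derived lines, although the 0 reads of the shallow clone 1 allow up to 33.5 CPM. In this comparison, also added after the values were seen, the log2 difference was 3.80 ± 0.75 (n = 4 against 3, edgeR adjusted p = 0.371); the 4 lines are described as descending from an original clone, so they are not independent clones. None of the 5 genes tested was called by edgeR, where 0% of 9496 genes were called in either direction. At an unadjusted p under 0.05, Gata4 was higher and Wt1 lower, and over all genes 449 were higher and 305 lower. Gata4 passed the filter on low counts only through the tumor-derived lines and Wt1 only through the clones, so their direction was fixed. DESeq2 called Gata4 higher (log2 difference 3.85, adjusted p = 0.000733), where it called 0.726% of genes higher and 0.293% lower. Wt1 was at 31, 14.7, 0 and 4.85 CPM in T1-mes, T2-epi, T3-mes and T4-epi, below every clone (log2 difference -2.53 ± 0.96, edgeR adjusted p = 0.598).

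Within the tumor-derived organoids, Cdh16 followed the histological label. It had 2 reads in T1-mes and 1 in T3-mes, while T2-epi had 71 reads and T4-epi 79. The mes lines were at least 25.5-fold lower (n = 2 against 2, edgeR adjusted p = 0.0236). It was the 1 gene called of 6 tested, where 0.123% of 9775 genes were called lower and 1% higher. Cdh16 passed the filter only through the epi lines, so it could only be called lower in the mes lines. The call ended when either epi line was left out (edgeR adjusted p = 0.257 and 0.183). Nr2f2 was at 97.03 and 322 CPM in the mes lines and 72.2 and 52.9 CPM in the epi lines (log2 difference 1.76 ± 0.62, edgeR adjusted p = 0.29). T3-mes stood apart, with the highest Nr2f2, the highest Gata6 of these lines (113 CPM) and no Wt1 read. The fibroblast marker sum of T1-mes was 3126 CPM and that of T3-mes 7546 CPM, whereas the epi lines had 31.3 and 102 CPM, and summed epithelial markers were at 2525 CPM in T1-mes but 209.6 CPM in T3-mes. Their part in the differences was not tested.

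**Figure D5:**
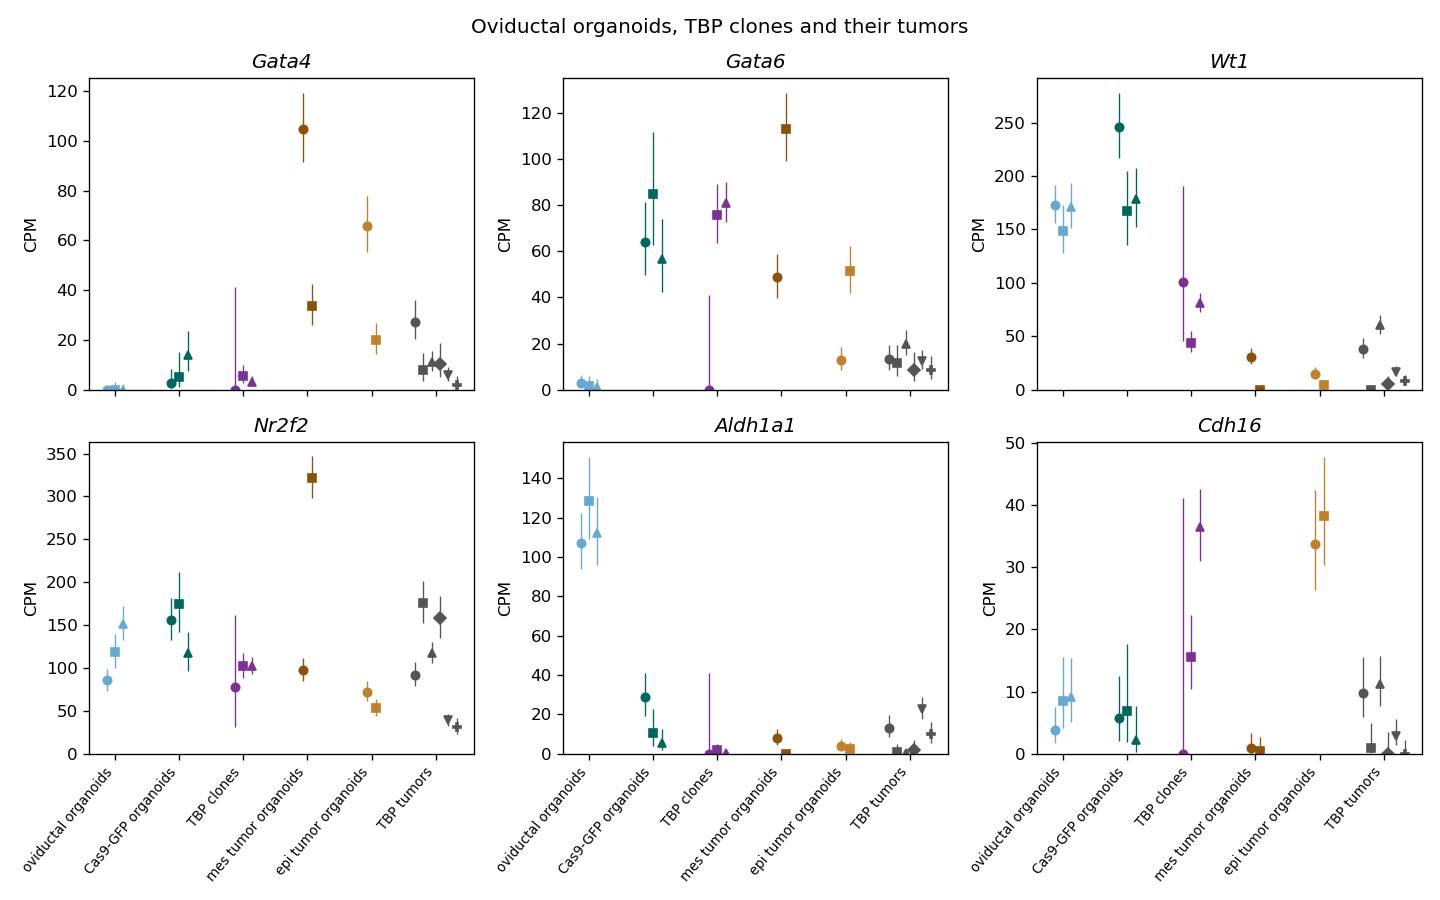
CPM of 6 genes in oviductal organoids of C57BL/6 and Cas9-GFP mice, TBP clones, tumor-derived organoids and TBP tumors; each point is 1 library, and its line is the 95% Poisson interval of the read count. The lines of TBP clone 1 are long because that library has 82239 reads. The group means of Gata4 are highest in the tumor-derived organoids, Wt1 is lower in tumors and tumor-derived organoids than in Cas9-GFP organoids, and Cdh16 separates the epi from the mes lines.

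In the 6 TBP tumors, Gata6 was at 8.52 to 19.99 CPM with a median of 11.97 CPM, and in the clones it was at 0, 75.5 and 81 CPM. The tumors were below clones 2 and 3, and clone 1 could not be placed at its depth. Gata6 was the 1 gene of 7 tested that was called, with a log2 difference of -2.31 ± 0.51 (edgeR adjusted p = 0.00603), where 11.7% of 10473 genes were called lower and 20.1% higher. Wt1 ranged from 0 to 60.3 CPM in the tumors (median 12.4), with a log2 difference of -1.67 ± 0.89 (edgeR adjusted p = 0.171). Tumors 2 and 4, with 0 and 6 Wt1 reads, also had the lowest summed epithelial markers (256 and 158 CPM, against 320.2 to 2244 CPM in the others) and the highest fibroblast markers (40810 and 57130 CPM). Tumors 1 and 3 had the highest Wt1 (38.2 and 60.3 CPM), the highest Cdh16 (9.83 and 11.2 CPM) and the highest epithelial markers (1734 and 2244 CPM). Fibroblast markers summed to at most 22.35 CPM in the clones, and the part of host cells in these values was not tested. RNA extraction differed between tissue and organoids, as given above, so between tumors and clones it cannot be told apart from growth as a tumor.

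The other genes of the set did not pass the test between tumors and clones. Aldh1a2 ranged from 0 to 27.1 CPM in tumors (edgeR adjusted p = 0.0602) and Aldh1a1 from 0.34 to 22.6 CPM (adjusted p = 0.108), and the clones had 0 to 3 reads of each. Against the floor of the clones, set by the shallow clone 1, neither mean gave a bound above 1. Cdh16 had a log2 difference of -2.31 ± 0.94 (edgeR adjusted p = 0.0827), Gata4 of 1.41 ± 0.79 (adjusted p = 0.195) and Nr2f2 of 0.07 ± 0.53 (adjusted p = 0.942). Bnc1, with no read in any organoid library, had 1 to 11 reads in each tumor, where fibroblast markers were at 9781 to 57130 CPM. Upk3b and Lhx9 had no read in any tumor.

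For each gene, the genes with the most similar pattern were taken by Pearson's r of log2 CPM over the 26 libraries with at least 500000 reads, among 11345 genes. These are descriptions over libraries that share tissue, culture and depth. Lhx9 followed Nr5a1 (r = 0.976), Defb19 and Lhcgr (both 0.974), and the latter is the receptor for luteinizing hormone. Bnc1 followed Smoc1 (0.95), Ces2e (0.931) and Ephb1 (0.917), and Upk3b followed Scube2 (0.923), Ppp1r14a (0.911) and Crip3 (0.904). Wt1 was most like Ppfibp2 (0.911), Chchd10 (0.898) and Npr1 (0.887), and Aldh1a1 like Polr2l (0.901), Mrps36 (0.896) and Zcchc3 (0.891). Cdh16 was most like Rasal1 (0.879), Tgfa (0.847), which encodes an EGF receptor ligand, and 2510049J12Rik (0.844). The values were lower for Aldh1a2 (Ildr2, 0.854), Gata4 (Gadd45g, 0.85), Gata6 (Trappc9, 0.791) and Nr2f2 (Ccdc157, 0.776). Genes of the set were left out as candidates in this ranking. Between pairs of the set, r ranged from -0.49 (Bnc1 and Cdh16) to 0.74 (Upk3b and Bnc1). Of the 30 genes named by this rule, 8 were also named with Spearman's rho.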

How the data were processed

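Bulk RNA of 27 libraries was sequenced after CEL-Seq2 library preparation. The deposited values are raw read counts per gene, made by the authors by mapping to GRCm38 with BWA (submitters' processing notes, which also name DESeq2 1.18.0) and counting uniquely mapped reads on the correct strand. Reads were not collapsed by molecular identifiers. The table had 18306 entries; 1 spike-in entry with 1 read was left out, no column went unused, and 18305 genes remained. Library totals are given in the report, and intervals are 95% Poisson intervals.

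Counts were scaled with TMM and tested with edgeR 4.0.16 (quasi-likelihood test, filterByExpr, Benjamini-Hochberg adjustment over all genes tested, threshold 0.05) in R 4.3.3, on the libraries of the groups compared. Alternatives were DESeq2 1.42.0, RLE size factors, no filter, all 27 libraries in one fit, a replicate block and leaving out each library. Folds against a group with at most 3 reads in every library were given as bounds at a floor of 3 reads per library, except the fitted interaction of Aldh1a2. The error of the other group's level did not enter these bounds, and the same floor was used where up to 3 reads were seen. Scripts were tested on simulated counts. The 33 pairs of replicates all differed by more than sampling noise (lowest chi-square per gene 2.765). Figures were drawn with matplotlib 3.10.9.

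The members and lists were chosen with earlier results of these data known. Named were the 10 genes, up to 3 genes of the highest mean CPM in each list, and for each of the 10 the 3 genes most correlated with it (prior count 2, group mean of at least 10 CPM); others are said to be chosen after their values were seen. The comparisons of Cas9-GFP with C57BL/6 oviductal organoids and of tumor-derived organoids with TBP clones were added after the data were seen. Some items are not reported here.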

Additional observations from a re-analysis of the deposited data

Results flagged for a closer look

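Gata4 in Tumor 1 was at 27.3 CPM, and the other 5 tumors were between 1.84 and 11.2 CPM; the gap to the nearest tumor was larger than Dixon's 95% limit for 6 samples allows. Of 8 pairs of a gene and a group checked this way, 1 stood out, and chance alone gives such a gap in about 1 in 20 groups. The change from tissue to organoids differed between OSE and oviduct for Aldh1a1 (interaction -3.34 on the log2 scale) and for Aldh1a2 (interaction 3.52), by edgeR's test of the interaction itself, with adjusted p = 0.0106 and 0.013. The value for Aldh1a2 rests on 0, 3 and 0 reads in oviductal organoids, depends on the prior count and is no bound. Fitting all 27 libraries together ended both calls.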

How the results depend on the processing

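With 2 OSE organoid lines, calls for OSE organoids against oviductal organoids and against tissue depended on single libraries, TBP clone 1 was shallow, and Upk3b, Bnc1 and Lhx9 were too low to follow outside tissue. Numbers of genes called, out of the 10, moved as follows, with the share of all genes tested that was called in that direction in parentheses. With DESeq2, OSE against oviductal organoids gave 2 higher (0.829%), oviductal organoids against oviduct tissue 6 lower (18.8%), TBP clones against Cas9-GFP organoids 1 lower (0.637%), tumors against clones 1 higher (21.2%), Cas9-GFP against C57BL/6 organoids 3 higher (7.68%), and tumor-derived organoids against clones 1 higher (0.726%). With no filter on low counts, the first gave 2 higher (0.263%), the second 1 higher (13.9%) and 6 lower (19.9%), the third 1 higher (1.37%) and 3 lower (1.23%), and Cas9-GFP against C57BL/6 organoids 3 higher (9.07%). With all 27 libraries in one fit, OSE against oviduct tissue gave 0 lower (13.6%), OSE against oviductal organoids 3 higher (0.812%), oviductal organoids against tissue 5 lower (16.6%), tumors against clones 3 higher (24.7%) and 2 lower (16.3%), Cas9-GFP against C57BL/6 organoids 2 higher (3.5%), tumor-derived organoids against clones 1 higher (1.55%), and the interaction 0 (5.24% in either direction). The cause of these moves was not tested.

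Leaving out each library in turn gave 0 to 3 higher and 0 to 1 lower for OSE against oviductal organoids (OSE organoids 1 and 2 decide), 4 to 8 lower for OSE organoids against tissue (8 without OSE organoids 1), and 0 to 1 higher for oviductal organoids against tissue (without oviduct tissue 2 or 3 or oviductal organoids 1). It gave 0 to 1 lower for clones against Cas9-GFP organoids (without TBP clone 2), and 0 to 1 higher (without Tumor 2, 3 or 4) and 1 to 3 lower (3 without Tumor 3) for tumors against clones. For mes against epi it gave 0 to 1 higher and 0 to 2 lower (1 and 2 without T1-mes; 0 lower without T2-epi or T4-epi), for Cas9-GFP against C57BL/6 organoids 1 to 2 higher (2 without oviductal organoids 1 or 2 or Cas9-GFP organoids 2), and for the interaction 2 to 4 (4 without OSE organoids 2). Where 1 library remained in a group, it was assumed to vary like the others.

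Signs turned only for log2 differences that were not called in the first place. Over the left-out libraries they ranged from -0.28 to 0.37 for Wt1 and -1.86 to 0.84 for Aldh1a1 (OSE against oviductal organoids), -0.24 to 0.16 for Gata6 (clones against Cas9-GFP), -0.13 to 0.27 for Nr2f2 (tumors against clones), -0.36 to 1.75 for Gata4, -7.35 to 1.65 for Wt1 and -6.99 to 1.02 for Aldh1a2 (mes against epi), -0.77 to 0.19 for Gata6, -0.43 to 0.73 for Nr2f2 and -0.96 to 0.58 for Cdh16 (tumor-derived organoids against clones), and -0.48 to 0.14 for Wt1 and -0.48 to 0.04 for Nr2f2 (interaction). DESeq2 gave 0.01 for Gata6 in tumor-derived organoids against clones. For tumors against clones, the median of all genes moved from 0.16 with TMM to 0.29 with RLE.

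Libraries with the same number showed little common deviation (correlations of -0.14 to 0.14). Given few libraries per group, this check cannot exclude a shared animal or batch. With the replicate number as a block, OSE organoids against OSE tissue went from 5 to 0 genes lower, and the signs of Aldh1a1 in OSE against oviductal organoids (-0.50) and Wt1 in mes against epi (-0.39) turned. Of the 30 most similar genes, 8 were shared with Spearman's rho and 22 with all 27 libraries.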
